A study of Mus musculus with 6 samples.

Results

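Synaptic vesicle and exocytosis genes were examined as a set of 43 listed genes among the 24264 genes of the expression table. The list takes in the synaptotagmins, the VAMP and SNAP proteins, other vesicle proteins and release factors. It was drawn up by gene name, with earlier results of these data known, and all 43 genes were found in the table. They were sorted into 10 subfamilies by protein family or role. RNA sequencing had been done on lumbar dorsal root ganglia of mouse embryos at E12.5, with 3 miR_cKO and 3 control libraries. These ganglia contain the somata of the neurons that sense touch, position, temperature and pain in limb and trunk, together with their glia.

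The miR_cKO embryos carried Wnt1-Cre and were homozygous for a floxed allele of the microRNA cluster (miR-183-96-182-flox/flox). Wnt1-Cre is driven by the Wnt1 promoter and deletes the floxed cluster in the neural crest lineage, which forms the neurons and glia of these ganglia but not their vessels, blood or surrounding mesenchyme. Controls 1 and 3 were titled Wnt-Cre and so share the Cre with miR_cKO, and control 2 was titled WT. All embryos were on a mixed C57/Bl6 x 129/SvEv background. The sources used here do not state whether controls carried a floxed allele or whether a library pooled embryos. The p-values below therefore measure the spread between these libraries. Markers of the labelled tissue were present in every library, among them Tubb3, Isl1 and Pou4f1 of sensory neurons and Sox10 of glia.

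At a nerve terminal, transmitter is packed into vesicles by transporters in the vesicle membrane. A vesicle SNARE (a VAMP protein) then zips together with SNAREs of the cell membrane (a syntaxin and a SNAP protein), synaptotagmins sense the calcium that enters, and complexins and Unc13 proteins set the vesicle's readiness to fuse. NSF and its adaptors take the spent SNARE complex apart. Other VAMP and SNAP members serve traffic to lysosomes, to growing membrane or to the surface of non-neuronal cells. A microRNA pairs through its seed, bases 2 to 8 from its 5 prime end, with sites mainly in 3 prime untranslated regions (UTRs) and lowers the level or translation of the mRNA. The miR-183/96/182 cluster is abundant in sensory neurons and in sensory cells of the ear, eye and nose.

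The mature sequences of the 3 deleted microRNAs are shown because their seeds define every site counted here. They are from RefSeq (GRCm38.p6), lie on the minus strand of chromosome 6, and are printed 5 prime to 3 prime with the seed in capitals.
miR-183-5p (chr6:30169711-30169732): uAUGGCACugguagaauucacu
miR-96-5p (chr6:30169506-30169528): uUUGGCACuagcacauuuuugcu
miR-182-5p (chr6:30165962-30165986): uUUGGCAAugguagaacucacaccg
One of the 7-base sites, TGCCAAA, matches miR-96 and miR-182 alike, and miR-183 matches none of the sites of the other two.

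A site was called 8mer when it matched the whole seed and was followed by A, and 7mer when it matched the seed alone or its first 6 bases followed by A. The 5 members with an 8mer are shown with the site in capitals and its flanks. These are mRNA-sense sequences from GENCODE M21 (mm10), with the coordinates of the printed stretch, and each lies in the gene's 3 prime UTR.
Vamp3, miR-182 site (chr4:151048325-151048354, minus strand): aagtttctattTTGCCAAAagttaagtaca
Vamp3, miR-96 site (chr4:151048274-151048303, minus strand): cattcaaataaGTGCCAAAtgtaactcaag
Sv2c, miR-96 site (chr13:95957554-95957583, minus strand): aatcccatattGTGCCAAAcatagttacca
Sv2c, miR-182 site (chr13:95954831-95954860, minus strand): ctcatttctgaTTGCCAAAatgttgggcca
Snap23, miR-182 site (chr2:120599585-120599614, plus strand): atttggaagcaTTGCCAAAgagccatgaaa
Snap47, miR-182 site (chr11:59407309-59407338, minus strand): tttcaccatttTTGCCAAAcagtagagaaa
Unc13a, miR-182 site (chr8:71628927-71628956, minus strand): aattgaaccggTTGCCAAAcaagtttctgt
The Vamp3 sites start 51 bases apart in a UTR of 1730 bases. For Sv2c the values implied a counted transcript of 4184 bases, shorter than the annotated UTR of 6686 bases, so the authors' transcript model held at most part of that UTR. The same held for Dnajc5 (3628 bases, against a UTR of 5757) and Syt2 (3351 bases, against 5468). Dnajc5 has 2 sites, both 7mers, and Syt2 has none.

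No member passed the test. Values are RPKM, reads per kilobase of transcript and per M mapped reads (M, mega), and changes are differences of log2(RPKM + 1), miR_cKO minus control. The fit was limma over all 13118 genes that reached 1 RPKM in at least 3 libraries, with Benjamini-Hochberg adjustment over all of them and a threshold of 0.05. Of the 43 members, 41 passed that filter. Syt3 and Syt6 stayed under 1 RPKM in all 6 libraries and were not tested. Adjusted p was under 0.05 for 0 of the 41 members, and the lowest was 0.698, against 0.061% of all genes tested (8 genes). An unadjusted p under 0.05 was found for 3 members, all higher in miR_cKO, and for 0 lower (7.32% in all). The same p was found for 5.16% of all genes, 2.85% higher and 2.31% lower. The groups did not overlap for those 3 members, Vamp3, Slc17a7 and Vamp7, and overlapped for the other 38. Over all genes the groups did not overlap for 10.9%, 4.63% higher and 6.24% lower in miR_cKO. Neither share of members lies far from its background.

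The members' changes were small. They ran between -0.32 (Synpr) and 0.49 (Slc17a7), and 34 of 41 were within 0.25 of 0 in either direction (82.9%, against 90.5% of all genes). Of the members, 24 lay above 0 (58.5%), against 40.4% of all genes, and the members' median was 0.03 against -0.02 over all genes. That direction rested on single libraries. Without miR_cKO 1 the median was -0.07 with 9 of 41 members above 0. Without control 2, the control titled WT, it was -0.07 with 8 above 0.

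**Figure D1:**
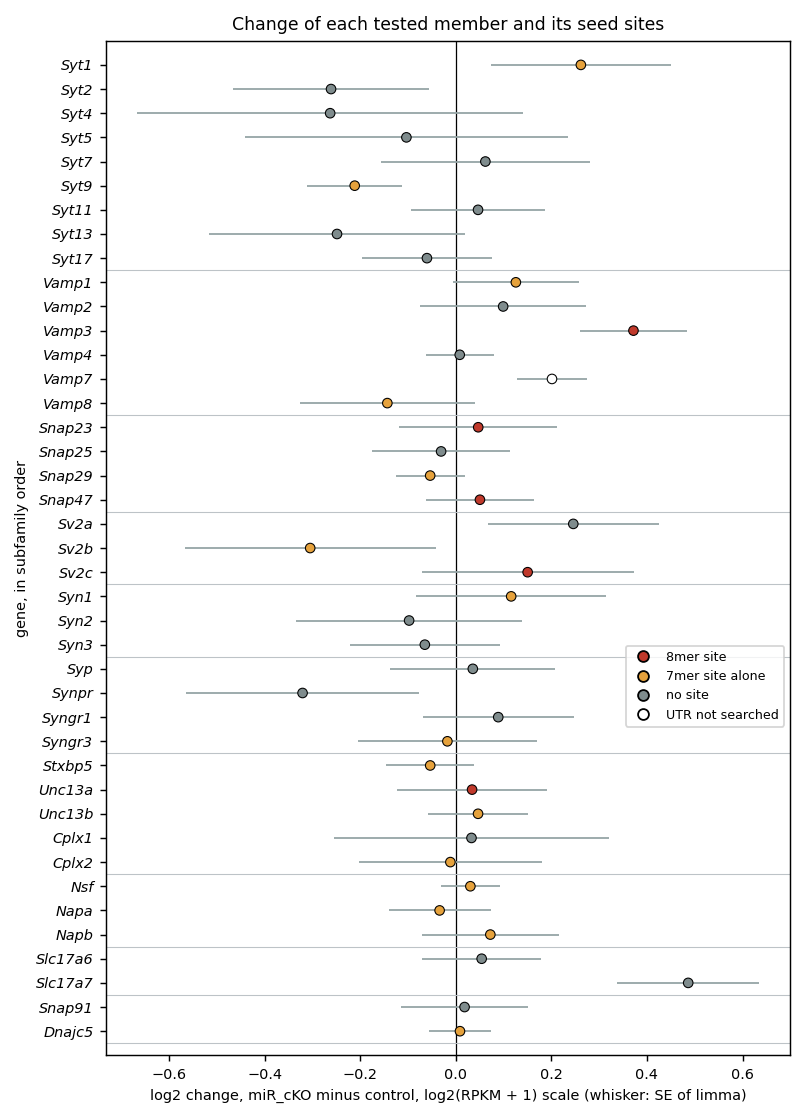
Change of each of the 41 tested members (log2(RPKM + 1) scale, miR_cKO minus control), in subfamily order, with limma's standard error as whiskers and the colour giving the strongest seed site in the 3 prime UTR. All values lie between -0.32 and 0.49, and the 5 genes with an 8mer lie above 0, Vamp3 farthest at 0.37; without miR_cKO 1, or without control 2, 2 of the 5 do.

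Across the set, the larger spread was between libraries of 1 group, by the per-library medians given below. The median ratio of the highest to the lowest of all 6 libraries, taken across both groups, was 1.55 over the members. Over all genes tested it was 1.31. The highest value of a member stood in miR_cKO 1 for 30 of 41 members, and the lowest in control 2 for 21 and in miR_cKO 3 for 13. Measured against each gene's own mean over the 6 libraries, the members' median was 0.26, -0.04 and -0.16 (log2) in miR_cKO 1 to 3, against 0.08, -0.21 and 0.09 in controls 1 to 3. So 1 library of each group ran low across most of the set, and the groups interleaved. The low control, control 2, was the one titled WT, so library and Cre genotype cannot be told apart there. Xist, the RNA made from the inactive X chromosome, stood at 96.0 RPKM in miR_cKO 1 and at 0.0316 to 0.0890 RPKM in the other 5 libraries, and the part of that difference in the members' levels was not tested. Syp and Syn1 are the members placed on the X chromosome in the annotation. Vamp7 was not located in it, so its chromosome is not given here.

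**Figure D2:**
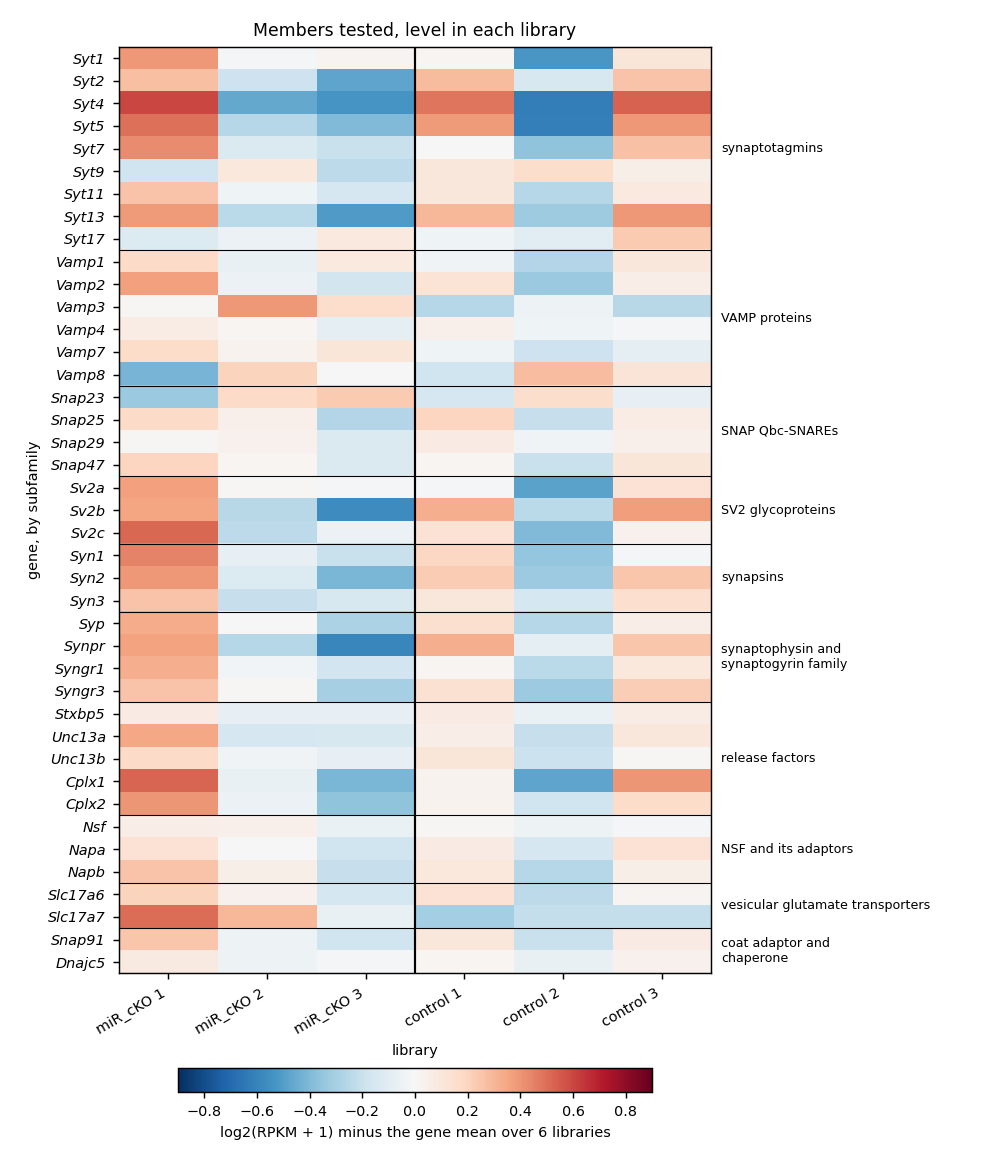
Level of each tested member in each library as log2(RPKM + 1) minus the gene's mean over the 6 libraries (colour), with subfamilies between horizontal lines and miR_cKO left of control. Most rows are red in miR_cKO 1 and blue in miR_cKO 3 and control 2, while Syt17, Vamp3, Vamp8 and Snap23 have their lowest miR_cKO value in miR_cKO 1.

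Markers of sensory neurons, taken as a list, varied with the members, though not every marker did. The 16 sensory neuron markers had a median of 0.25, 0.05 and -0.26 in miR_cKO 1 to 3, against 0.10, -0.19 and 0.07 in controls 1 to 3, on the same scale. Of the 16, those above their own mean numbered 15, 11 and 2 in miR_cKO 1 to 3, and 11, 3 and 10 in controls 1 to 3. Pou4f1 was lowest among controls in control 3, with 77.6, 77.0 and 66.1 RPKM in controls 1 to 3. Ntrk2 went the other way, with 2042, 2305 and 2505 reads in miR_cKO 1 to 3. In controls 1 to 3 it had 1783, 2482 and 1674 reads, not corrected for depth. The summed level of the 16 markers was 5696, 4797 and 3768 RPKM in miR_cKO 1 to 3, against 5006, 3951 and 4955 RPKM in controls 1 to 3. The 14 cycling-cell markers ran the other way, with 451, 646 and 719 RPKM in miR_cKO 1 to 3, against 493, 682 and 490.1 RPKM in controls 1 to 3. The part of either in the members' levels was not tested. In bulk tissue, fewer neurons and less RNA per neuron cannot be told apart.

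Other cell types were present in every library. Summed levels in miR_cKO and control libraries were 924 to 1053 and 887 to 1156 RPKM for 12 glial markers, 304 to 382 and 333 to 537 for 16 mesenchymal ones, 108 to 157 and 109 to 131 for 10 endothelial ones, and 3418 to 6775 and 1757 to 9828 for 8 red cell ones. The 13 skeletal muscle markers reached 30.3 to 43.8 RPKM in miR_cKO, against 32.4 to 191 in controls, where controls 2 and 3 stood apart from the rest. The 9 sympathetic markers came to 32.4, 11.5 and 10.2 RPKM in miR_cKO 1 to 3, against 23.5, 9.61 and 38.3 in controls 1 to 3. Like the members, they were lowest in miR_cKO 3 and control 2 of their groups. The 12 spinal cord markers came to 5.13, 1.94 and 20.1 RPKM in miR_cKO 1 to 3, against 2.42, 4.97 and 5.21 in controls 1 to 3. Mnx1 was at 0 throughout. The part of either list in the members' levels was not tested. Of these lists, 12 glial, 15 mesenchymal, 10 endothelial, 6 red cell, 8 muscle, 1 sympathetic and 2 spinal cord markers were tested, and none of those passed. The libraries held an estimated 20.8 to 22.4 M reads in miR_cKO and 20.1 to 24.2 M in controls, and 37 of the 40 members with recovered reads had at least 100 reads in each library. By the annotation, 11 members share exon sequence with a gene on the other strand, among them Snap47 (Jmjd4), Snap29 (Pi4ka), Unc13a (Colgalt1), Syp, Sv2b, Syt4, Syt7 and the synapsins. The library kit marks strand, but the sources used here do not say whether the counting used it, so reads of these pairs cannot be told apart.

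The synaptotagmins, which bind calcium or tether vesicles for release, summed to 316, 229.7 and 206 RPKM in miR_cKO 1 to 3, against 290.4, 205 and 299 RPKM in controls 1 to 3. The groups overlapped, and the ratio of means was 0.95. Of the 9 tested, 3 were higher and 6 lower on average, none past the test. Syt11, a synaptotagmin that does not bind calcium and limits endocytosis and secretion, was the most abundant. It had 127, 104 and 95.3 RPKM in miR_cKO 1 to 3, against 114, 88.7 and 113 RPKM in controls 1 to 3. Its values overlapped, with a change of 0.05 ± 0.14 (SE) and an unadjusted p of 0.75.

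Syt1 and Syt2 are the fast calcium sensors of transmitter release, and their average differences had opposite signs. Syt1 had 20.1, 14.9 and 15.4 RPKM in miR_cKO 1 to 3, against 15.3, 10.2 and 16.4 RPKM in controls 1 to 3. Syt2 had 18.4, 13.1 and 10.5 RPKM in miR_cKO 1 to 3, against 18.5, 13.5 and 18.1 RPKM in controls 1 to 3. Both overlapped between groups. Syt1 differed by 0.26 ± 0.19 (SE, unadjusted p = 0.209) and Syt2 by -0.26 ± 0.21 (unadjusted p = 0.244). Syt1 has a 7mer for miR-183 in its UTR, and Syt2 has no site.

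Syt9, a calcium sensor related to Syt1 and Syt2, has 4 sites, all 7mers, the most of any member. It had 11.9, 14.6 and 11.4 RPKM in miR_cKO 1 to 3, against 14.7, 15.3 and 14.2 RPKM in controls 1 to 3. It was lower in miR_cKO 1 and 3 than in any control, and miR_cKO 2 lay among the controls. The change was -0.21 ± 0.10 (SE), with an unadjusted p of 0.071.

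The remaining synaptotagmins spanned a wide range of levels. Syt13, which lacks calcium binding, averaged 68.7 ± 23.1 RPKM in miR_cKO and 80.8 ± 20.1 in controls (SD, n = 3 each). Syt4 varied widely within both groups, with 27.4, 12.6 and 11.97 RPKM in miR_cKO 1 to 3, against 25.2, 11.2 and 26.1 RPKM in controls 1 to 3. Syt5, Syt7 and Syt17 averaged between 1.19 and 5.46 RPKM in either group, and their changes ran between -0.10 and 0.06.

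The VAMP proteins, the vesicle-side SNAREs, summed to 182, 164 and 151 RPKM in miR_cKO 1 to 3, against 158, 137 and 155 RPKM in controls 1 to 3, a ratio of means of 1.10. The sums overlapped in miR_cKO 3. Of the 6, 5 averaged higher in miR_cKO and Vamp8 averaged lower. Vamp2 (synaptobrevin 2), the main vesicle SNARE of fast transmitter release, was the most abundant. It had 113, 84.0 and 77.6 RPKM in miR_cKO 1 to 3, against 95.1, 69.2 and 91.1 RPKM in controls 1 to 3, with overlap, a change of 0.10 ± 0.17 (SE) and an unadjusted p of 0.587.

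Vamp3 (cellubrevin) lies at chr4:151047300-151057963 on the minus strand (mm10) and serves endosome recycling in most cell types. It had the smallest p of the 41 members. Vamp3 had 28.2, 37.0 and 31.5 RPKM in miR_cKO 1 to 3, against 23.3, 27.1 and 23.4 RPKM in controls 1 to 3. Every miR_cKO library lay above every control, the closest being miR_cKO 1 and control 2. The means were 32.2 ± 4.42 and 24.6 ± 2.16 RPKM (SD, n = 3 each), and the change was 0.37 ± 0.11 (SE), with an unadjusted limma p of 0.0128 and an adjusted p of 0.698. It was between 0.27 and 0.46 with any 1 library left out.

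Vamp3 carries both a miR-182 and a miR-96 8mer, as printed above. Of the 40 tested members with a UTR searched, 2 had 2 or more 8mers, Vamp3 and Sv2c (5%), against 1.10% of all tested genes with a UTR. Vamp3 did not follow the neuronal pattern of the set: among the miR_cKO libraries it was highest in miR_cKO 2, and among controls in control 2. The summed level of the 10 endothelial markers had the same order within each group, with 108, 157 and 117 RPKM in miR_cKO 1 to 3, against 109, 131 and 125 RPKM in controls 1 to 3. Their part in the Vamp3 values was not tested.

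Vamp7, a VAMP of lysosomal and outgrowth traffic in neurites, varied little between libraries of a group. It had 16.1, 14.7 and 15.5 RPKM in miR_cKO 1 to 3, against 13.9, 12.48 and 13.5 RPKM in controls 1 to 3. The groups did not overlap, with a change of 0.20 ± 0.07 (SE), an unadjusted p of 0.0294 and an adjusted p of 0.855. Its UTR was not searched because the gene was not located in the annotation used. Whether a pseudogene copy shares its reads was not tested. Vamp8, an endosomal and secretory VAMP, averaged 10.4 ± 2.39 RPKM in miR_cKO and 11.5 ± 1.96 in controls (SD, n = 3 each), and Vamp1 and Vamp4 changed by 0.13 and 0.01, with overlap.

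**Figure D3:**
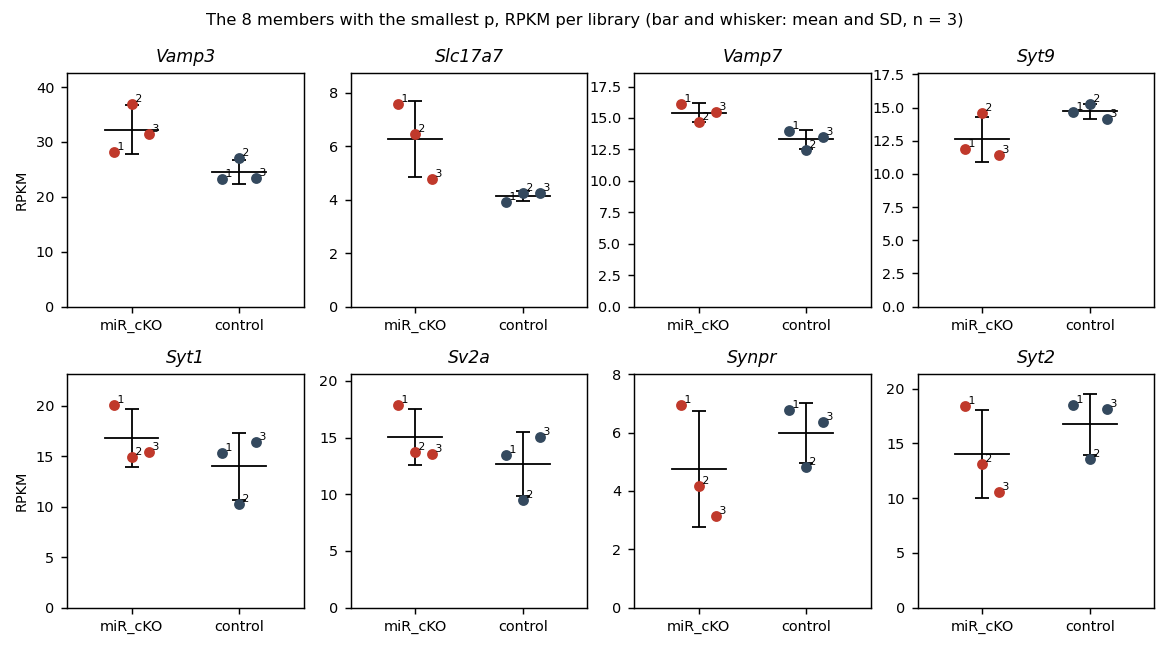
RPKM in each library (numbered points) of the 8 members with the smallest p, with the mean and SD of each group (n = 3). Vamp3, Slc17a7 and Vamp7 do not overlap between miR_cKO and control, and the other 5 do.

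The SNAP proteins pair with VAMPs from the membrane side, Snap25 at the synapse and Snap23, Snap29 and Snap47 more widely. They summed to 197, 185 and 163 RPKM in miR_cKO 1 to 3, against 188, 162 and 189 RPKM in controls 1 to 3, a ratio of 1.01 with overlap. Snap47, the most abundant, had 100.3, 88.6 and 80.1 RPKM in miR_cKO 1 to 3, against 88.6, 76.2 and 94.9 RPKM in controls 1 to 3. Its change was 0.05 ± 0.11 (SE, unadjusted p = 0.67). Snap25 averaged 56.3 ± 8.67 RPKM in miR_cKO and 57.5 ± 8.11 in controls, and Snap23 14.8 ± 3.19 and 14.1 ± 1.71 (SD, n = 3 each). Snap47 and Snap23 each have a miR-182 8mer, and their changes were 0.05 each, with overlap.

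The SV2 glycoproteins of the vesicle membrane, which tune release and bind synaptotagmin 1, summed to 44.9, 29.8 and 29.3 RPKM in miR_cKO 1 to 3, against 36.3, 24.5 and 37.5 RPKM in controls 1 to 3. The ratio was 1.06, with overlap. Sv2a was the highest on average, with 17.9, 13.8 and 13.5 RPKM in miR_cKO 1 to 3, against 13.4, 9.498 and 15.1 RPKM in controls 1 to 3. Its change was 0.25 ± 0.18 (SE, unadjusted p = 0.212), and the groups overlapped. Sv2b averaged 7.99 ± 3.00 RPKM in miR_cKO and 9.91 ± 2.40 in controls, a change of -0.30, and Sv2c, with its pair of 8mers, 11.6 ± 3.60 and 10.2 ± 2.08 (SD, n = 3 each), a change of 0.15.

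The synapsins, which tether vesicles in the reserve pool, summed to 49.8, 34.1 and 29.9 RPKM in miR_cKO 1 to 3, against 42.7, 29.0 and 40.4 RPKM in controls 1 to 3, a ratio of 1.02. Syn1, the most abundant, had 25.03, 17.2 and 15.7 RPKM in miR_cKO 1 to 3, against 20.7, 14.1 and 17.97 RPKM in controls 1 to 3. It overlapped, with a change of 0.12 ± 0.20 (SE, unadjusted p = 0.578). Syn2 and Syn3 changed by -0.10 and -0.07. The opposite-strand genes that overlap Syn1, Syn2 and Syn3 are Araf, Timp4 and Timp3.

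The synaptophysin and synaptogyrin family, abundant proteins with 4 membrane spans, summed to 115, 90.2 and 73.3 RPKM in miR_cKO 1 to 3, against 101, 75.7 and 97.7 RPKM in controls 1 to 3, a ratio of 1.01. Syp (synaptophysin), the usual marker of vesicles, supplied 73.5% to 76.9% of each sum. Syp had 87.0, 69.1 and 56.3 RPKM in miR_cKO 1 to 3, against 76.3, 57.5 and 71.7 RPKM in controls 1 to 3. It overlapped, with a change of 0.04 ± 0.17 (SE, unadjusted p = 0.843).

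Synpr (synaptoporin) had the lowest change of the set. It had 6.96, 4.18 and 3.13 RPKM in miR_cKO 1 to 3, against 6.76, 4.82 and 6.35 RPKM in controls 1 to 3. Libraries 2 and 3 of miR_cKO lay below every control and miR_cKO 1 above them. The change was -0.32 ± 0.24 (SE, unadjusted p = 0.231), and no site was found in its UTR. Syngr1 and Syngr3 changed by 0.09 and -0.02.

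The release factors summed to 140.4, 103 and 88.7 RPKM in miR_cKO 1 to 3, against 112, 90.9 and 123 RPKM in controls 1 to 3, a ratio of 1.02 with overlap. Cplx2, a complexin that clamps and promotes SNARE fusion, was the most abundant, with 63.0, 46.0 and 36.7 RPKM in miR_cKO 1 to 3, against 48.6, 41.9 and 53.6 RPKM in controls 1 to 3. Its change was -0.01 ± 0.19 (SE, unadjusted p = 0.954). Cplx1 averaged 23.2 ± 8.15 RPKM in miR_cKO and 22.5 ± 6.89 in controls (SD, n = 3 each). Unc13a and Unc13b, the priming factors, changed by 0.03 and 0.05 and Stxbp5 (tomosyn), which blocks SNARE assembly, by -0.05. All 5 overlapped between groups, Unc13a with its 8mer included.

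NSF and its adaptors, which recycle SNARE complexes in all cells, varied less between libraries than the release factors. They summed to 111, 101 and 89.6 RPKM in miR_cKO 1 to 3, against 104, 90.0 and 106 RPKM in controls 1 to 3, a ratio of 1.00. Napa (alpha-SNAP), the most abundant, had 59.3, 53.9 and 47.7 RPKM in miR_cKO 1 to 3, against 57.0, 48.6 and 59.2 RPKM in controls 1 to 3. It overlapped, with a change of -0.03 ± 0.11 (SE, unadjusted p = 0.759). Nsf changed by 0.03, with 25.3 ± 1.17 RPKM in miR_cKO and 24.7 ± 0.532 in controls (SD, n = 3 each), and the neuronal adaptor Napb by 0.07.

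The vesicular glutamate transporters load vesicles with glutamate. Slc17a6 (VGLUT2, chr7:51622006-51671119, plus strand, mm10) is the form of most embryonic sensory neurons and supplied 84.5% to 90.9% of their sum. It had 41.3, 36.7 and 32.0 RPKM in miR_cKO 1 to 3, against 39.2, 30.2 and 36.4 RPKM in controls 1 to 3. The groups overlapped, with a change of 0.05 ± 0.13 (SE, unadjusted p = 0.679).

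Slc17a7 (VGLUT1, chr7:45163949-45176142, plus strand, mm10), which in adult ganglia marks mainly large touch and proprioceptive neurons, had the highest change of the set. It had 7.59, 6.45 and 4.78 RPKM in miR_cKO 1 to 3, against 3.91, 4.23 and 4.24 RPKM in controls 1 to 3. All 3 miR_cKO libraries lay above the controls, whose values lay close together. The means were 6.27 ± 1.41 and 4.13 ± 0.186 RPKM (SD, n = 3 each). The change was 0.49 ± 0.15 (SE), with an unadjusted limma p of 0.0139 and an adjusted p of 0.717, and lay between 0.36 and 0.64 with any 1 library left out. No site was found in its UTR. Among the miR_cKO libraries it had the order of the sensory neuron markers, and among controls it did not.

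The coat adaptor and the chaperone complete the set. Dnajc5 (cysteine string protein), a chaperone of SNAP25, had 52.2, 47.8 and 48.7 RPKM in miR_cKO 1 to 3, against 50.0, 47.0 and 50.7 RPKM in controls 1 to 3. It overlapped, with a change of 0.01 ± 0.06 (SE, unadjusted p = 0.898). Snap91 (AP180), a clathrin adaptor for vesicle retrieval, averaged 28.9 ± 4.64 RPKM in miR_cKO and 28.4 ± 3.31 in controls (SD, n = 3 each). Their sum had a ratio of 1.01.

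**Figure D4:**
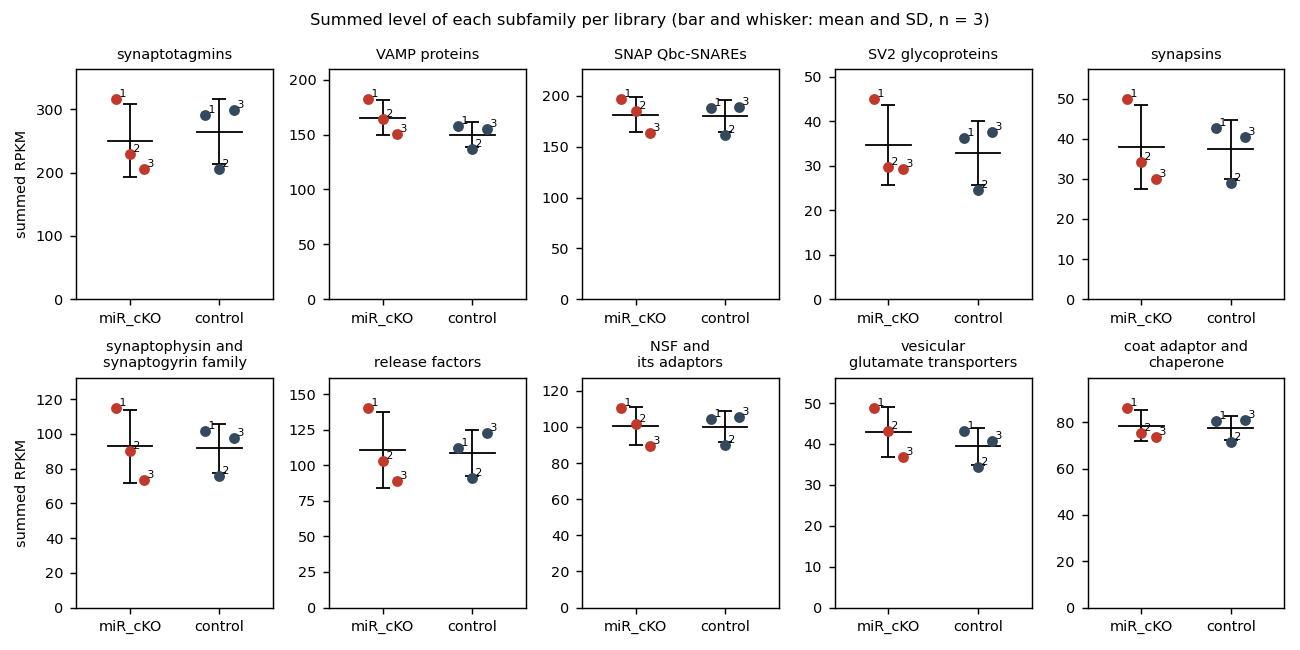
Summed RPKM of each of the 10 subfamilies in each library (numbered points), with the mean and SD of each group (n = 3). Both groups overlap in every panel, the ratio of means lies between 0.95 (synaptotagmins) and 1.10 (VAMP proteins), and miR_cKO 3 and control 2 are the lowest of their groups in all 10.

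Seed sites were more frequent in the members than in all genes. A site of any of the 3 microRNAs was found in 20 of 40 searched members (50.0%), against 33.6% of the 12121 tested genes with a UTR. The members' UTRs were also longer, with a median of 1590 bases against 1098. An 8mer was found in 5 of the 40, against 9.15% of all genes. The median change was 0.03 in members with a site and 0.01 in members without one, against 0.00 and -0.04 over all genes. In the wider list the order was the other way, with -0.06 for genes with a site and -0.03 for genes without one. All 5 members with an 8mer averaged higher in miR_cKO, as did 691 of 1109 genes over the whole table, but 2 of the 5 did so without miR_cKO 1, 2 without control 2, and 3 with limma's array weights. With any other library left out the count was 4 or 5, and Vamp3 stayed above 0 in every alternative. In the wider pathway list described below, 2 of 5 genes with an 8mer lay above 0. Among the 5 members with an 8mer, Vamp3 and Sv2c changed by 0.37 and 0.15, and the others by 0.03 to 0.05. A match describes the sequence and does not show that a microRNA acts there.

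Levels of 1 member relative to another in the same library are free of a library-wide shift that both share. Among the 84 pairs of tested members within a subfamily, 14 had ratios that did not overlap between groups (16.7%), against 10.5% of all pairs of tested genes. Pairs share genes and are not independent, and they are described without a test. The ones given here were chosen after their values were seen.

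Slc17a7 was 18.4%, 17.6% and 15.0% of Slc17a6 in miR_cKO 1 to 3, against 9.99%, 14.0% and 11.6% in controls 1 to 3. All miR_cKO ratios exceeded the controls'. The Syt1 level was 109%, 114% and 146% of Syt2 in miR_cKO 1 to 3, against 82.8%, 75.6% and 90.3% in controls 1 to 3. So Syt1 was above Syt2 in each miR_cKO library and below it in each control, although neither gene alone separated the groups. Relative to Syt13, Syt1 stood at 21.3%, 24.4% and 30.5% in miR_cKO 1 to 3, against 17.2%, 17.7% and 17.2% in controls 1 to 3.

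Sv2b and Synpr took part in 2 such pairs each. Sv2a was 158%, 194% and 245% of Sv2b in miR_cKO 1 to 3, against 121%, 133% and 131% in controls 1 to 3. The level of Syp was 1250.2%, 1651% and 1803% of Synpr in miR_cKO 1 to 3, against 1127%, 1194% and 1129.5% in controls 1 to 3. Relative to these partners, Sv2b and Synpr were lower in each miR_cKO library than in any control. For Vamp3 and Vamp7, 1 of 5 pairs each did not overlap. Vamp3 was 362%, 295% and 291% of Vamp8 in miR_cKO 1 to 3, against 247%, 203.5% and 199.6% in controls 1 to 3. Vamp4 was 88.7%, 94.1% and 82.8% of Vamp7 in miR_cKO 1 to 3, against 101%, 106% and 99.3% in controls 1 to 3.

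**Figure D5:**
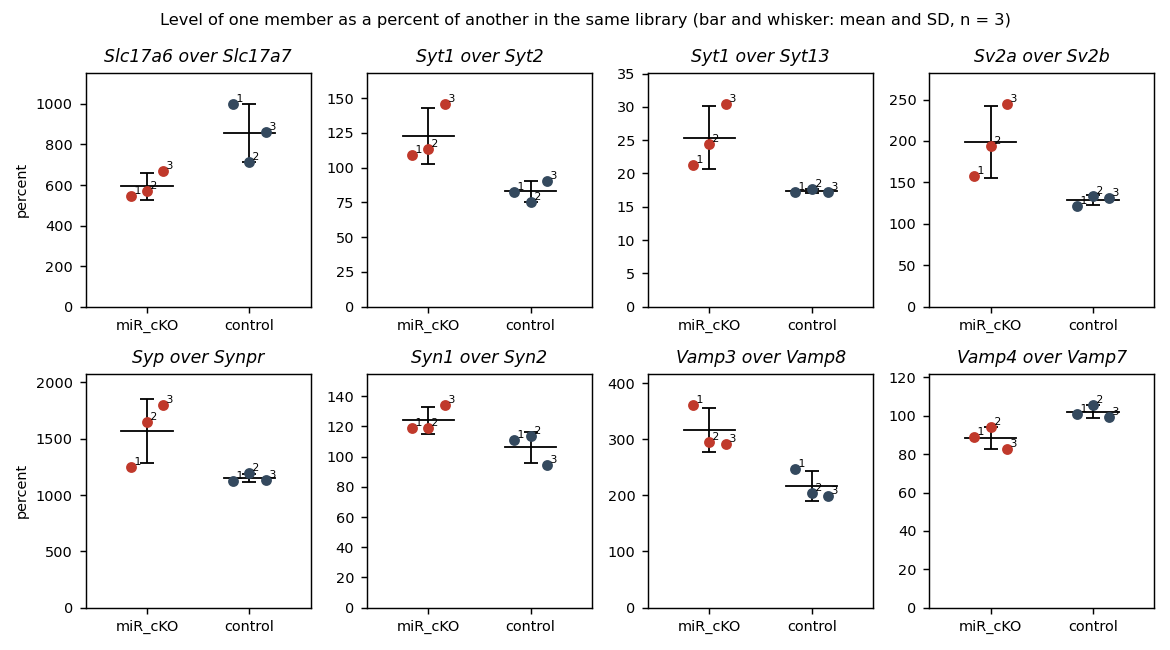
Level of one member as a percent of another in the same library (numbered points; mean and SD, n = 3) for 8 pairs chosen because their groups do not overlap. Syt1 is 109% to 146% of Syt2 in miR_cKO and 75.6% to 90.3% in controls.

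A fit with the sensory neuron markers' mean deviation as a covariate was added after the data were seen. In it, 7 of 41 members had an unadjusted limma p under 0.05 (10.2% of all genes did) and 0 an adjusted p under 0.05 (0.503% of all genes did), the lowest adjusted p being 0.138. The 7 were Syt2, Sv2b, Syt13 and Synpr, with changes of -0.30, -0.35, -0.29 and -0.36, and Vamp3, Slc17a7 and Vamp7, with changes of 0.38, 0.47 and 0.20.

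Other genes of the pathway were read from a wider list of 85 genes, among them syntaxins, Rab3 and Rab27 proteins, active zone scaffolds, endocytic genes and the exocyst, of which 64 were tested. Of these, 0 passed the limma test as higher (0.0534% of all genes did) and 1 as lower (0.00762% did). By unadjusted limma p under 0.05, 2 were higher and 1 was lower (4.69% in all, against 5.16% of all genes, 2.85% higher and 2.31% lower). The median change was -0.03, against -0.02 over all genes, with 24 of 64 above 0 (37.5%, against 40.4% of all genes).

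The one that passed was Stx2, a syntaxin of the cell membrane that pairs with SNAP23 and VAMP proteins, at chr5:128984557-129008574 on the minus strand (mm10). Stx2 fell to 13.1, 11.96 and 11.3 RPKM in miR_cKO 1 to 3, against 31.3, 24.4 and 31.6 RPKM in controls 1 to 3. The groups lay far apart, with means of 12.1 ± 0.891 and 29.1 ± 4.09 RPKM (SD, n = 3 each). The change was -1.19 ± 0.11 (SE) and limma's adjusted p 0.0428. The call was lost in 12 of 16 alternatives, with adjusted p up to 0.354, while the change stayed between -1.13 and -1.31 with any 1 library left out. Its UTR holds 1 site, a miR-183 7mer. The changes of the SNAP and VAMP members, its partners in fusion, ran between -0.14 and 0.37.

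Rab3c, a vesicle GTPase of the Rab3 group (chr13:110054187-110280996, minus strand, mm10), had 15.0, 11.9 and 13.4 RPKM in miR_cKO 1 to 3, against 7.10, 5.63 and 9.17 RPKM in controls 1 to 3. The groups did not overlap, with a change of 0.81 ± 0.16 (SE), an unadjusted p of 0.00169 and an adjusted p of 0.257 by limma. Its UTR holds 4 sites, of which 2 are miR-96 8mers. Synj1 (synaptojanin 1), which uncoats retrieved vesicles, averaged 13.3 ± 1.73 RPKM in miR_cKO and 10.4 ± 1.34 in controls (SD, n = 3 each), without overlap. Its change was 0.32 ± 0.12 (SE), with an adjusted p of 0.891 by limma. Sncb (beta-synuclein) had 1.40, 1.31 and 0.966 RPKM in miR_cKO 1 to 3, against 0.631, 0.597 and 1.08 RPKM in controls 1 to 3, with overlap.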

How the data were processed

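The authors deposited 1 table of 24264 genes by 6 libraries with decimal commas and no unit in its header. The submitters' processing notes name Bowtie and mm10, and the sources used here name no counting tool or annotation. Libraries were stranded and made from poly(A) RNA, per the labels' protocols, so the deleted microRNAs cannot check the labels. The deposited values were read as RPKM because a gene's values are whole multiples of 1 read. For 40 of 43 members all values came to whole reads (within 0.02 read), and the depth estimates rest on these steps. The values could equally be FPKM. No column of sample values was left unused (0 columns).

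The test was limma 3.58.1 (R 4.3.3, trend and robust settings) on log2(RPKM + 1), which understates the change of a low gene. Subfamily sums, ratios and sites were computed with pandas 2.3.3 in Python 3.11.15 and have no test. The UTR of the main transcript in GENCODE M21 was searched on the sense strand. Alternatives were another pseudocount, filters, scalings, weights, the replicate block and each library left out. Genes given in full are the 8 members with the smallest p, the most abundant of each subfamily and the 4 smallest p of the wider list. Members and lists were chosen with earlier results of these data known.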

Additional observations from a re-analysis of the deposited data

How the results depend on the processing

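No member passed the threshold under any of the 16 alternatives, and their count at an unadjusted p under 0.05 was 2 to 7 there. Among all genes, where 8 passed, 2 passed with median centring, 34 with array weights and 66 with the neuron covariate, added after seeing the data. None (0) passed with upper quartile scaling, with haemoglobin and mitochondrial genes left out of the scaling, with no trend or robust settings or the replicate block, where 686, 677, 709 and 847 had an unadjusted limma p under 0.05; leaving out 1 library gave 0 to 2 (441 to 1022 unadjusted). Stx2 of the wider list was lost (0 called by limma, unadjusted p still under 0.05) with no filter, those scalings, no trend or robust settings, the replicate block and every library left out. The labels do not say whether replicate numbers pair the samples. Same-numbered deviations correlated at 0.36, 0.33 and -0.22, which cannot decide it with 3 libraries per group. Under the replicate block 0 members passed and their median was 0.03. The members' median was -0.07 to 0.11 with 1 library left out and -0.02 with array weights. Of 650 values of the 41 tested members under the alternatives, 71 changed sign, in 26 members, none past the threshold; the cause was not tested. The values below are those of the 17 members given in full, of which 9 changed sign. With array weights, Syt11 was -0.018, Syp -0.0027 and Dnajc5 -0.032. Cplx2 was 0.018 with median centring, 0.010 with upper quartile scaling and 0.0012 with haemoglobin and mitochondrial genes left out. With 1 library left out, Syt11 ranged from -0.071 to 0.13, Vamp2 from -0.062 to 0.21, Snap47 from -0.038 to 0.13, Syn1 from -0.077 to 0.24, Syp from -0.12 to 0.19, Cplx2 from -0.21 to 0.17, Napa from -0.12 to 0.046, Slc17a6 from -0.050 to 0.15 and Dnajc5 from -0.028 to 0.034. Counting 8mer sites alone gave 5 members with a site in place of 20.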
